A study of Brassica carinata and Brassica napus and Brassica carinata x Brassica napus with 3 samples.

Results

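The 9 genes described here, CRC, INO, ANT, BEL1, SPT, HEC1, NGA1, NGA3 and ARF3, encode transcription factors that shape the carpel and the ovule, and they were followed copy by copy in floral buds. Members were assembled sequences whose best hit in Swiss-Prot was the Arabidopsis entry of 1 of these 9 proteins. There were 39 such sequences, here called copies, of 157663 in all. The wording used to choose them (such as CRABS CLAW or NGATHA1) found 14 copies of 3 genes, CRC, SPT and ARF3. The other 6 genes stand in Swiss-Prot under other names (INO as axial regulator YABBY 4, ANT as an AP2-like factor, HEC1 and NGA1 by symbol) and were therefore found by their Swiss-Prot entry.

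The carpel forms at the centre of the flower and closes into an ovary with style and stigma above it, and ovules grow from its inner margin. In Arabidopsis, CRC and INO are YABBY proteins, the first needed for carpel closure and nectaries and the second for the outer integument of the ovule. ANT drives organ growth and integument initiation and BEL1 gives the integuments their identity. SPT and HEC1 are bHLH proteins of the carpel margin and the transmitting tract, NGA1 and NGA3 are B3-domain proteins of style and stigma, and ARF3 (ETTIN) is an auxin response factor that sets the zones of the gynoecium. The roles given below are those known from Arabidopsis.

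Buds came from Brassica carinata (cultivar W29), from Brassica napus (cultivar Zhongshuang 11) and from a hybrid of both species, all at the labelled stage of initial flowering, with 1 RNA-seq library per group. B. carinata carries the B and C genomes and B. napus the A and C genomes. The labels used here give neither the number of plants pooled nor the direction of the cross or the hybrid's generation. The libraries held 28.1 M, 27.1 M and 28.2 M (mega) counted reads for B. carinata, the hybrid and B. napus, and the members received 11566, 16080 and 12416 of them. Each difference below compares libraries, without a replicate check, and intervals (95%) cover counting error only. Whole buds were sequenced, so fewer carpel cells and less RNA per cell cannot be told apart.

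The libraries carried flower markers throughout, and differed in what else the buds held. The floral markers AG, AP3, PI, SEP3 and AP1 (5 of 5 matched) summed to 868 RPKM in B. carinata, 778 in hybrid buds and 569 in B. napus, where RPKM is reads per kilobase of sequence, scaled to library total. Tapetum and exine markers (3 of 6 matched) summed to 4082, 971 and 780 RPKM. Late pollen markers (5 of 5) summed to 27.0, 21.5 and 735 RPKM, with PPME1 at 7, 9 and 3161 reads. The only green-tissue marker matched of 3, LHCA1, had 71.2, 43.1 and 101.1 RPKM. The part of these differences in the results below was not tested.

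The levels of the 9 genes spanned about the same order in the 3 libraries. Levels are RPKM summed over the copies of a gene. CRC and ANT were the highest genes, ARF3, NGA1 and SPT followed in that order in each library, and INO, NGA3, HEC1 and BEL1 had lower mean levels. CRC led in the hybrid and B. napus and ANT led in B. carinata. The lead of ANT rests on adding up 10 copies, several of them short fragments: its highest single copy had 48.1 RPKM in B. carinata, against 127 for that of CRC. In B. carinata the levels of HEC1, NGA3 and BEL1 had overlapping counting intervals (2.08 to 3.77, 2.85 to 4.14 and 3.27 to 4.26 RPKM), so that their order is not set by these reads. In B. napus the same held for INO and NGA3 (7.59 to 9.92 and 8.54 to 10.6 RPKM) and for SPT and HEC1 (12.8 to 16.0 and 11.4 to 15.0 RPKM). In the hybrid it held for NGA1 and SPT (20.3 to 23.9 and 19.2 to 22.8 RPKM) and for HEC1 and BEL1 (2.66 to 4.64 and 3.44 to 4.46 RPKM).

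**Figure D1:**
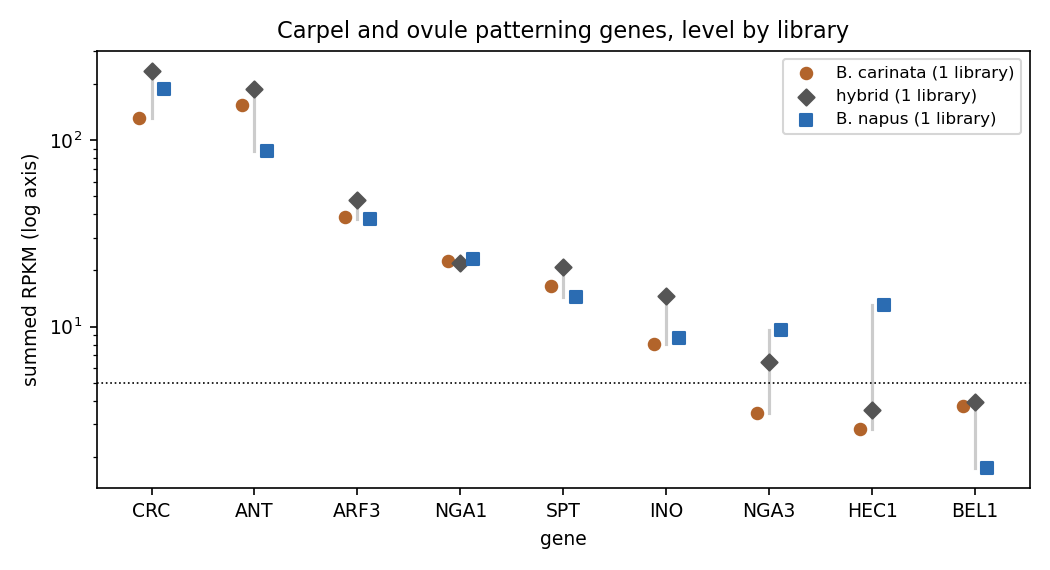
Summed RPKM (log axis) of the 9 genes in the B. carinata, hybrid and B. napus libraries, 1 point per library, ordered by mean level. The dotted line marks 5 RPKM, which BEL1 does not reach in any library, and HEC1 lies above it in B. napus only.

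Between the parents, a transmitting tract gene (HEC1) and a style gene (NGA3) stood apart, both higher in B. napus. A gene counted as apart at 2-fold or more in log2(RPKM + 1), provided the higher library reached 5 RPKM, and 8 of the 9 genes reached that level. HEC1 and NGA3 were lower in B. carinata (2 of 8) and no gene was higher. Of all 7977 Arabidopsis entries tested the same way 28.1% were apart, 16.5% higher and 11.5% lower in B. carinata, so that the members' 2 of 8 is close to the background. The members' median log2 ratio was -0.06, against 0.08 over all entries.

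Against B. carinata, none of the 7 genes tested in the hybrid was apart, while 10.5% of 7651 entries were. Against B. napus, ANT was higher and HEC1 lower in the hybrid, 2 of 8 genes beside 14.3% of 7683 entries (7.13% higher and 7.15% lower). No gene was apart from the mid-parent value, the mean of the parental RPKM, beside 5.88% of 7691 entries. The hybrid comparisons share the hybrid library and, through the mid-parent value, both parental libraries.

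**Figure D2:**
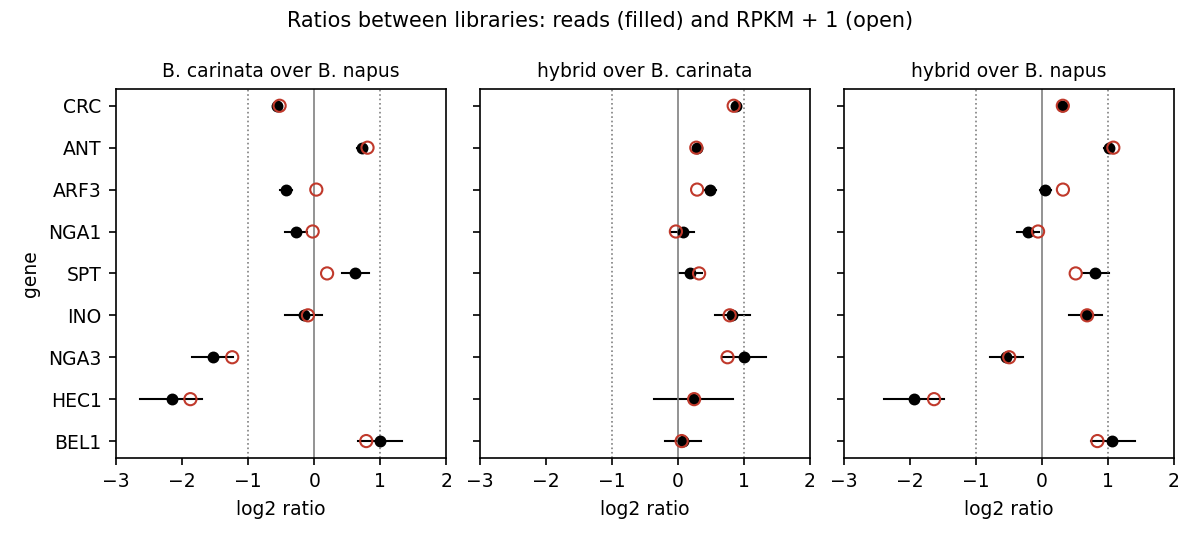
Log2 ratios between libraries for each gene, by reads scaled to library totals (filled points, with 95% intervals for counting error) and by RPKM + 1 (open points). Dotted lines mark 2-fold; HEC1 and NGA3 lie left of the line for B. carinata over B. napus, and ANT lies at the right line and HEC1 beyond the left one for the hybrid over B. napus.

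CRC, the carpel and nectary regulator, was the most abundant gene of the group and highest in the hybrid. It had 131 RPKM in B. carinata, 236 RPKM in hybrid buds and 189 RPKM in B. napus. The read ratio of the hybrid was 1.84 (interval 1.76 to 1.91) to B. carinata and 1.24 (interval 1.20 to 1.29) to B. napus, both under 2-fold. Nearly all of this came from 1 copy of 999 bases, CL15379.Contig1, which had 3560, 6346 and 5332 reads. The second copy, CL15379.Contig2 of 299 bases, had 38 reads in B. carinata, 14 in hybrid buds and 0 in B. napus. With TMM factors, which rescale the libraries, CRC passed 2-fold over B. carinata, at a log2 ratio of 1.03.

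INO, the outer-integument YABBY, had 8.08 RPKM in B. carinata, 14.6 RPKM in hybrid buds and 8.70 RPKM in B. napus. The parents were close to each other (read ratio 0.89, interval 0.73 to 1.09), and the hybrid stood above both, at 1.77 (interval 1.48 to 2.12) and 1.58 (interval 1.33 to 1.89) times their reads. The 2 long copies did not have the same pattern. CL3501.Contig2 had 4.46, 7.16 and 3.17 RPKM, and CL3501.Contig1 had 2.70, 5.41 and 5.0 RPKM. The short CL3501.Contig3, whose best Nr hit names INNER NO OUTER of B. oleracea, had 7, 15 and 4 reads. All 3 copies had their highest RPKM in the hybrid, but the interval included 1 for CL3501.Contig1 over B. napus (read ratio 1.08, interval 0.85 to 1.38) and for CL3501.Contig3 over B. carinata (2.23, interval 0.85 to 6.45). With TMM factors INO passed 2-fold over B. napus (log2 ratio 1.11) and over the mid-parent value (1.03).

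ANT, the growth and integument factor, was higher in B. carinata and the hybrid than in B. napus. It had 155 RPKM in B. carinata, 188 RPKM in hybrid buds and 88.0 RPKM in B. napus. The log2 ratio of hybrid over B. napus was 1.09, with a read ratio of 2.02 (interval 1.93 to 2.12), just past 2-fold. With the copy of highest mean alone it was 0.98 and no longer apart. The parents were within 2-fold (log2 ratio 0.81, read ratio 1.65 with an interval of 1.57 to 1.73), but apart with TMM factors (1.08) or the median of ratios (1.08).

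The 10 ANT copies differed in their parental pattern. CL16672.Contig5, of 2322 bases, had 17.6, 31.4 and 21.0 RPKM in B. carinata, the hybrid and B. napus, so that it was highest in the hybrid. CL16672.Contig3, of 2014 bases, had 21.9, 18.01 and 5.52 RPKM, at 3.97 times the reads in B. carinata over B. napus (interval 3.51 to 4.51). CL16672.Contig4, of 2118 bases and with aintegumenta 2 of B. napus as best Nr hit, had 8.62, 12.04 and 5.83 RPKM. These 3 long copies account for most ANT reads in each library.

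The shorter ANT copies included the sharpest parental differences. CL16672.Contig6, of 215 bases, had 0 reads in B. carinata, 110 in hybrid buds and 114 in B. napus, at least 37.9-fold lower in B. carinata than in B. napus. Unigene44989 went the other way, with 198, 124 and 0 reads, at least 66.2-fold higher in B. carinata. CL16672.Contig1 and Unigene24120 also had 0 reads in B. napus, with 68 and 41 reads and 31 and 26 reads in B. carinata and the hybrid. Unigene24119 had 16.2, 11.3 and 3.05 RPKM, and CL16672.Contig2 had 8.75, 7.96 and 1.22 RPKM. The most abundant fragment, Unigene24118, had 48.1, 65.5 and 32.6 RPKM and was highest in the hybrid.

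BEL1, the integument identity gene, was below 5 RPKM throughout and had the lowest mean level of the 9 genes. It had 3.74 RPKM in B. carinata, 3.93 RPKM in hybrid buds and 1.74 RPKM in B. napus, from 228, 232 and 115 reads. A pair of long copies carried nearly all of it. Unigene42193 had 170 reads in B. carinata, 126 in hybrid buds and 0 in B. napus, at least 56.9-fold higher in B. carinata than in B. napus. Unigene42195 had 57, 104 and 114 reads, and was 0.50 times as frequent in B. carinata as in B. napus (interval 0.36 to 0.69). Of the BEL1 reads 74.6% (interval 68.4% to 80.1%) fell on Unigene42193 in B. carinata and 54.3% (interval 47.7% to 60.8%) in the hybrid. Reads on both long copies were thus present in the hybrid.

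SPT, the carpel margin bHLH gene, had totals within 2-fold but mostly different copies in the parents. Its level was 16.6 RPKM in B. carinata, 20.9 RPKM in hybrid buds and 14.4 RPKM in B. napus, all within 2-fold. By reads the parental ratio was 1.54 (interval 1.34 to 1.78), and that of the hybrid to B. napus 1.76 (interval 1.53 to 2.02). CL1699.Contig4, of 1422 bases, had 360 reads in B. carinata, 297 in hybrid buds and 0 in B. napus, at least 120-fold higher in B. carinata. CL1699.Contig3 had 17, 82 and 148 reads, at 0.12 times the reads in B. carinata over B. napus (interval 0.065 to 0.19). CL1699.Contig1 and CL1699.Contig2 were also lowest in B. carinata, with 10, 36 and 45 reads and 10, 41 and 32 reads.

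Copies without a B. napus read took 81.0% of the SPT reads in B. carinata (interval 77.2% to 84.3%) and 60.0% in the hybrid (interval 55.8% to 64.1%). The SPT ratio therefore depends on which copies are counted. The log2 ratio of B. carinata over B. napus was 0.19 over all copies, 3.32 with the copy of highest mean (CL1699.Contig4), and -1.64 over copies with reads in each library. For the hybrid over B. napus these values were 0.52, 3.12 and -0.42, and for the hybrid over B. carinata 0.32, -0.20 and 1.22. Unigene6086 and Unigene6087 are weaker SPT hits (Swiss-Prot scores of 85.1 and 229, against 494 for CL1699.Contig4), and had 48, 35 and 0 reads and 59, 62 and 103 reads.

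HEC1, the transmitting tract bHLH gene, had the largest difference of the group. It had 2.84 RPKM in B. carinata, 3.55 RPKM in hybrid buds and 13.1 RPKM in B. napus, from 47, 53 and 210 reads. The hybrid and B. carinata were both far below B. napus and close to each other. Read ratios to B. napus were 0.22 (interval 0.16 to 0.31) for B. carinata and 0.26 (interval 0.19 to 0.36) for the hybrid, with log2 ratios of -1.87 and -1.63. The ratio of hybrid to B. carinata was 1.17 (interval 0.78 to 1.77), and both were under 5 RPKM, so that this pair was not tested.

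All 3 HEC1 copies were highest in B. napus. The longest, CL21525.Contig2 of 740 bases, had 37, 38 and 166 reads, Unigene41346 had 10, 15 and 33 reads and CL21525.Contig1 had 0, 0 and 11 reads. The hybrid level of HEC1 was just within 2-fold of the mid-parent value (log2 ratio -0.98), and passed 2-fold there with a pseudocount of 0.1 (-1.14) or the median of ratios (-1.04). HEC3, a close relative from the further genes described below, had 5.56, 9.66 and 18.8 RPKM, also highest in B. napus. HEC2 stayed under 5 RPKM, at 2.44, 1.82 and 0.18 RPKM, and was lowest in B. napus.

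NGA3 and NGA1, both style genes, did not share a pattern. NGA3 had 3.45 RPKM in B. carinata, 6.49 RPKM in hybrid buds and 9.53 RPKM in B. napus, and so stepped from parent to hybrid to parent. Its mid-parent value was 6.49 RPKM, the same as the hybrid level. The log2 ratio of B. carinata over B. napus was -1.24, with a read ratio of 0.35 (interval 0.28 to 0.43). It was -0.78 with a pseudocount of 5 and -0.9985 with TMM factors, just short of 2-fold in the second case, and then no longer apart. Most of it was 1 copy, CL6887.Contig2 of 1390 bases, with 109, 214 and 322 reads.

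NGA1 differed little in summed RPKM, at 22.5 RPKM in B. carinata, 22.04 RPKM in hybrid buds and 22.9 RPKM in B. napus. By reads it was 0.83 times as frequent in B. carinata as in B. napus (interval 0.74 to 0.93). CL2857.Contig4 had 8.08, 9.75 and 9.43 RPKM, CL2857.Contig3 had 5.65, 5.92 and 6.98 RPKM, and CL2857.Contig5 had 4.75, 4.69 and 6.52 RPKM. The last was lower than in B. napus in both B. carinata (read ratio 0.73, interval 0.61 to 0.87) and the hybrid (0.72, interval 0.60 to 0.86), and the intervals of the other long pair included 1 in each comparison. The short CL2857.Contig1 had 25 reads in B. carinata, 10 in hybrid buds and 0 in B. napus.

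ARF3, the auxin response factor of gynoecium zones, had nearly equal totals in the parents from unequal copies. Its level was 38.7 RPKM in B. carinata, 47.6 RPKM in hybrid buds and 37.9 RPKM in B. napus. By reads the parental ratio was 0.74 (interval 0.70 to 0.79). CL298.Contig2, of 1066 bases, had 17.0, 14.8 and 0.40 RPKM, at 42.7 times the reads in B. carinata over B. napus (interval 24.2 to 83.2). CL298.Contig3 had 0.84, 4.10 and 8.31 RPKM and CL298.Contig4 had 1.25, 3.12 and 7.75 RPKM, both lowest in B. carinata.

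The remaining ARF3 copies were closer between the parents. CL298.Contig1, of 2381 bases, had 10.9, 17.0 and 15.9 RPKM, and CL298.Contig5 had 6.86, 7.96 and 5.50 RPKM. Both had their highest RPKM in the hybrid, but for CL298.Contig1 the interval over B. napus included 1 (read ratio 1.07, interval 0.98 to 1.17). CL298.Contig5 had 1.16 times its B. carinata reads (interval 1.02 to 1.33), a difference smaller than the shift of that comparison under the median of ratios. The fragment CL23506.Contig3 had 17, 5 and 0 reads, and its best nucleotide hit names ARF4, so that its gene is uncertain.

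**Figure D3:**
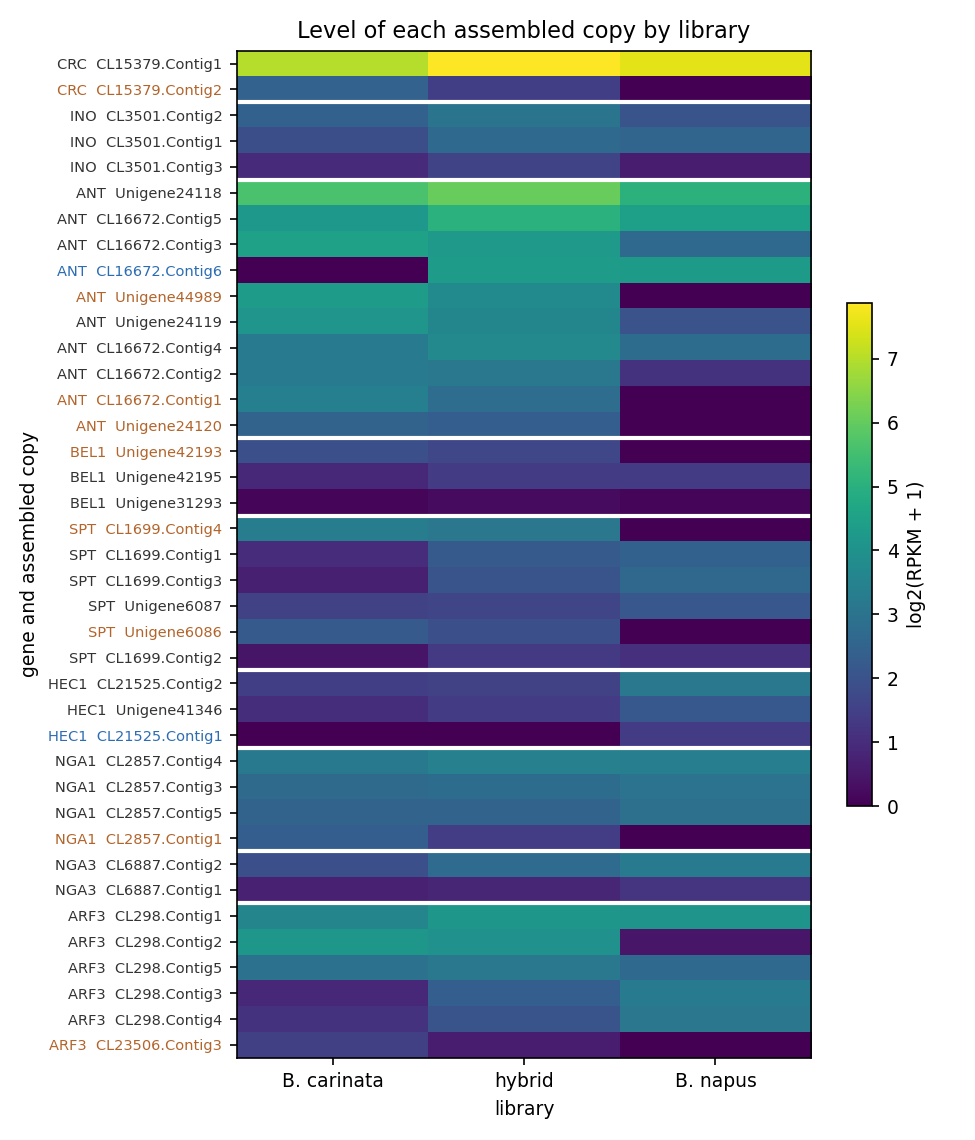
Level of each of the 39 copies, as log2(RPKM + 1), by library, grouped by gene. Brown names mark the 9 copies with 0 reads in B. napus, blue names the 2 with 0 reads in B. carinata, and all but 1 of these 11 copies, the HEC1 copy CL21525.Contig1, had reads in the hybrid.

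A larger share of the copies tested (59.1%) than of the genes tested (25%) was apart between the parents. The same was seen over all sequences (74.8%) beside all entries (28.1%). Of 22 copies with at least 5 RPKM in the higher parent, 7 were higher and 6 lower in B. carinata, beside 74.8% apart among all 49318 sequences tested (41.8% higher and 33% lower). ANT gave 6 of these 13, ARF3 3, SPT 2, and HEC1 and NGA3 1 each. Against B. carinata 1 of 19 copies was apart in the hybrid, the ANT copy CL16672.Contig6, beside 36.6% of 42845 sequences. Against B. napus 9 of 24 were apart, 7 higher and 2 lower, beside 43.6% of 41134 sequences (28.1% higher and 15.6% lower). No copy of 20 was apart from the mid-parent value, beside 11.2% of 37690 sequences.

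Copies seen in B. carinata but not in B. napus were about as common as elsewhere in the assembly. There were 9 of 39 with reads in B. carinata and none in B. napus (23.1%, and 24.4% of all sequences), and 2 with the reverse (5.13%, and 12.6% of all sequences). At 5 RPKM or more in a library, 3 of 24 copies (12.5%) lacked B. napus reads and 1 (4.17%) B. carinata reads, beside 17.7% and 5.81% of 50663 sequences. The 11 copies had lengths of 215 to 2141 bases, and the 28 copies with reads in both parents had a median length of 981 bases. All 9 copies without B. napus reads had reads in the hybrid, and all 9 were below their B. carinata frequency there, for 6 of them with an interval under 1. Of all 38538 such sequences 84.6% had hybrid reads and 83.9% were below B. carinata. With at least 20 reads in B. carinata there were 8, with a median hybrid ratio of 0.70. Over all 20036 such sequences the median was 0.47 (quartiles 0.28 and 0.68), and 91.7% were below B. carinata.

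**Figure D4:**
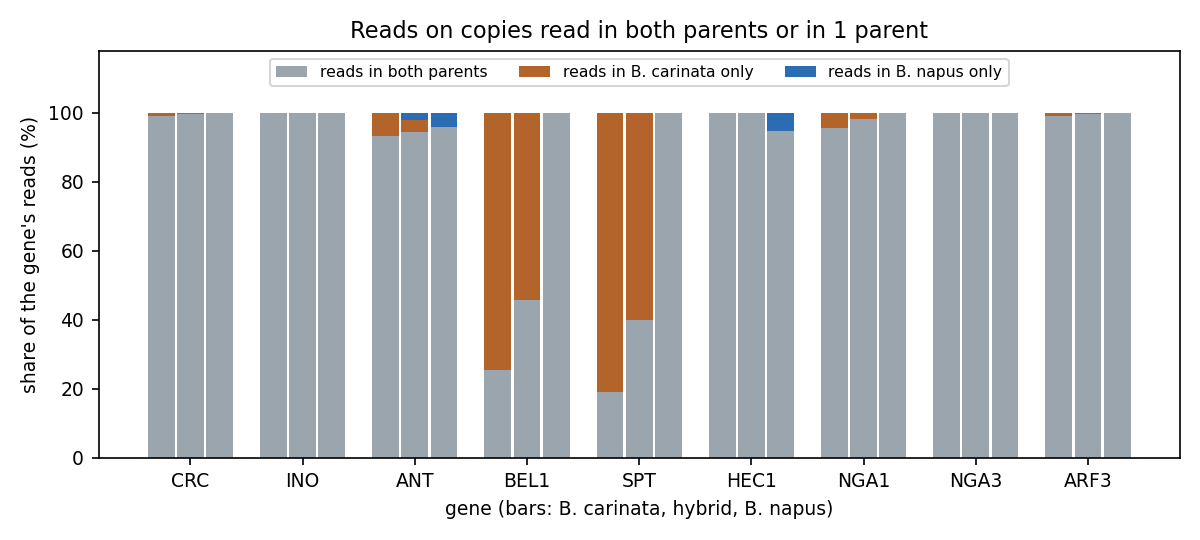
Share of each gene's reads (%) on copies read in both parents (grey), in B. carinata only (brown) and in B. napus only (blue), with bars for B. carinata, the hybrid and B. napus from left to right. Copies without B. napus reads take most SPT and BEL1 reads in B. carinata and a smaller share in the hybrid.

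The hybrid lay above both parents for most members by deposited totals. Of the 8 genes with at least 5 RPKM in a library, 5 had their highest level in the hybrid (CRC, INO, ANT, SPT and ARF3), NGA1 its lowest, and HEC1 and NGA3 lay between the parents. Among all 8018 entries at that level 19.3% were highest in the hybrid, 22.6% lowest and 58.1% between. Library scaling moves these counts: with TMM factors 6 of 8 members and 46.4% of entries were highest in the hybrid, and with the median of ratios 3 of 8 and 7.46%. With the latter ANT and ARF3 were just under B. carinata (log2 ratios of -0.03 and -0.01), and NGA1 was lowest in the hybrid with deposited totals but not with TMM factors. By reads, the interval of ARF3 for the hybrid over B. napus included 1 (read ratio 1.04, interval 0.98 to 1.10). SPT over B. carinata was at 1.14 by reads (interval 1.01 to 1.29), and its log2 ratio there was 0.03 with the median of ratios. With its copy of highest mean alone SPT was under B. carinata (-0.20), and of its copies only CL1699.Contig2 was highest in the hybrid. NGA1 by reads lay between the parents, at 1.05 over B. carinata (interval 0.93 to 1.18) and 0.87 over B. napus (interval 0.78 to 0.97). The members' median log2 ratio of hybrid over mid-parent was 0.36, against -0.04 over all entries, and it was 0.66 against 0.26 with TMM factors and 0.18 against -0.22 with the median of ratios.

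Other regulators of carpel and ovule were described the same way from a list of 59 genes, of which 47 were matched by an Arabidopsis entry and 44 tested. Between the parents 9 were higher in B. carinata and 2 lower, beside the 28.1% of entries apart (16.5% higher and 11.5% lower). Against B. carinata 3 were higher in the hybrid and none lower, beside 10.5% of entries apart. Against B. napus 9 were higher and none lower, beside 7.13% of entries higher and 7.15% lower. With TMM factors, which shift this comparison by 0.46 in log2, these were 17 and none. All entries moved too, from a median log2 ratio of 0.01 to 0.46, and the shares of entries given here are for deposited totals. The 9 genes higher in B. carinata than in B. napus and the 9 higher in the hybrid both included STM and AG. This pair was within 2-fold in RPKM once copies under Brassica entries were added, as given below. By reads, AIL7, ERECTA, KNAT1 and CUC1 were also under 2-fold for the hybrid over B. napus (read ratios 1.36, 1.80, 1.71 and 1.96). For B. carinata over B. napus the same held for AIL7, ERECTA and CUC2 (read ratios 1.41, 1.59 and 1.98). The median log2 ratio of hybrid over mid-parent was 0.23, against -0.04 over all entries, with 0.54 under TMM factors and 0.05 under the median of ratios. Of the 44 genes 20 were highest in the hybrid, beside 19.3% of entries, and 33 and 13 under these scalings, beside 46.4% and 7.46% of entries.

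Apart between B. carinata and the hybrid by Arabidopsis entries were the MADS genes SHP1 and SHP2 and the auxin response factor ARF8. With the median of ratios, which shifts this comparison by -0.31 in log2, 1 gene of the list was higher and 1 lower, and SHP1 and ARF8 (log2 ratios of 1.05 and 1.12 by deposited totals) were within 2-fold. SHP2, a valve margin gene also active in ovules, had 3.12 RPKM in B. carinata, 22.2 in hybrid buds and 27.8 in B. napus. SHP1, its close copy, had 38.8, 81.4 and 64.5 RPKM, and reads of this pair may be shared between them. FUL, a valve gene, had 17.2, 32.2 and 22.9 RPKM by its Arabidopsis entry, within 2-fold. With copies under a Sinapis entry added it had 33.3, 72.1 and 45.8 RPKM, and the hybrid was then past 2-fold over B. carinata. STK, an ovule identity gene, had 38.2, 59.2 and 39.0 RPKM, within 2-fold. ARF8 had 83.4, 182 and 111 RPKM, with a read ratio of the hybrid to B. carinata of 1.85 (interval 1.78 to 1.94), under 2-fold. Each of these except SHP2 was highest in the hybrid, as CRC and INO were.

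Among the genes named for their large ratios to B. napus, CUC1, an organ boundary gene, had 26.3 RPKM in B. carinata, 18.1 in hybrid buds and 6.19 in B. napus, and CUC2, a second boundary gene, 28.5, 42.1 and 11.9 RPKM. YAB1, an organ polarity gene of the same family as CRC and INO, had 124, 125 and 40.1 RPKM. SUB, a receptor-like kinase of ovule integuments, had 257, 204 and 74.9 RPKM. Of the other polarity genes of the list, YAB5 had 90.4, 68.8 and 41.7 RPKM and was apart between the parents. YAB3 (157, 130 and 81.7 RPKM) and KAN4 (10.7, 8.96 and 4.89 RPKM) were also lowest in B. napus. Their log2 ratios between the parents, 0.93 and 0.99, were just within 2-fold. Not all boundary and polarity genes shared this: CUC3 had 12.7, 11.4 and 10.4 RPKM, and KAN1 had 17.3, 15.4 and 16.0 RPKM. REV, at 44.8, 69.4 and 64.6 RPKM, was lowest in B. carinata. ANT was also higher in B. carinata than in B. napus, within 2-fold. STM and AG differed by their Arabidopsis entries (STM 14.4, 14.2 and 0 RPKM; AG 12.1, 6.87 and 2.79 RPKM), but other copies of both had a Brassica entry. With these added STM had 40.6, 63.0 and 62.8 RPKM and AG 129.5, 103 and 95.7 RPKM. STM was then lower in B. carinata, and both genes were within 2-fold in RPKM. By reads STM had 1267, 2099 and 2571, just past 2-fold lower in B. carinata than in B. napus.

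**Figure D5:**
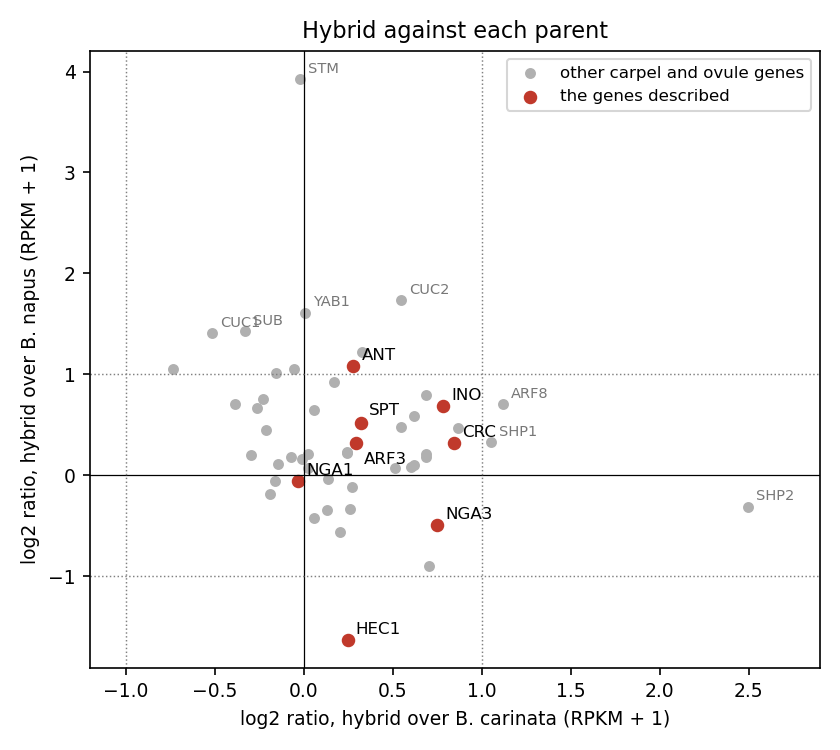
Log2 ratio of the hybrid over B. carinata (horizontal) and over B. napus (vertical), from RPKM + 1, for 8 members (red, all but BEL1) and the other carpel and ovule genes (grey). Dotted lines mark 2-fold; CRC, INO, ANT, SPT and ARF3 lie above 0 on both axes, and HEC1, at under 5 RPKM in both the hybrid and B. carinata, lies lowest on the vertical axis.

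By level in the 3 libraries, few genes lay close to CRC, INO, ANT and HEC1, and many to ARF3 and NGA1. The measure was the Euclidean distance in log2(RPKM + 1) over the 3 libraries among all entries with at least 5 RPKM in a library. The nearest entry to CRC was clathrin heavy chain 2 (125.6, 237 and 173 RPKM, distance 0.14), and 4 entries lay within 0.25. The nearest to INO was tubby-like F-box protein 9 (8.41, 15.1 and 8.86 RPKM, distance 0.07), with 6 entries within 0.25. For ANT it was fasciclin-like arabinogalactan protein 8 (168, 164 and 82.7 RPKM, distance 0.24), and for HEC1 cysteine-rich repeat secretory protein 38 (2.49, 3.96 and 12.6 RPKM, distance 0.19). ARF3 had 52 entries within 0.25 and NGA1 70. With 3 libraries this describes likeness of level only.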

How the data were processed

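RNA from floral buds was sequenced, 1 library per group. The authors deposited 1 table of raw read counts and RPKM values per assembled sequence, with the scores of the best Nr and Swiss-Prot hits, per the file headers. Deposited counts summed to the header totals, and deposited RPKM equalled counts over length and total within 5e-05. Which programs assembled, aligned and counted is not given in the sources used here, so reads of near-identical copies may be split between them.

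Copies were grouped by Swiss-Prot entry (scores 48.9 to 1059, 4 of 39 under 100). RPKM was summed per gene. Log2 ratios were taken after adding 1 RPKM, which understates low genes, and a gene or copy was apart at 2-fold, provided the higher library reached 5 RPKM. Intervals of read ratios are exact conditional binomial and of shares Clopper-Pearson. Those of levels are Poisson intervals of a gene's total reads, scaled to its summed RPKM. They leave out the unlike lengths of its copies, so that they are approximate and can be too narrow. Folds written as at least put 3 reads in place of 0 in that library. With 1 library per group no test across samples was made. Reads carry no molecular identifiers and so are not independent molecules.

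All members and copies of at least 5 RPKM in any library were named, and of the other carpel and ovule genes the 4 with the largest ratio per pair of libraries. STK, HEC2, HEC3, AIL7, ERECTA, KNAT1, CUC3, KAN1, KAN4, REV, YAB3 and YAB5 were named after their values had been seen. Most alike were the entries nearest in level. Members and lists were chosen with earlier results of these data known. edgeR 4.0.16 (R 4.3.3) gave the TMM factors, all else came from Python 3.11.15 with pandas 2.3.3 and SciPy 1.17.1.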

Additional observations from a re-analysis of the deposited data

How the results depend on the processing

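No log2 ratio of a gene that was apart changed sign under any alternative. Rescaling shifted the log2 ratios of a comparison, less where the added 1 RPKM weighs: between the parents by 0.28 with either method, against B. carinata by 0.18 (TMM) or -0.31 (median of ratios) and against B. napus by 0.46 or -0.03. TMM factors gave 1 gene (CRC) against B. carinata and 1 (INO) against the mid-parent value instead of 0, and the median of ratios or a pseudocount of 0.1 gave 1 (HEC1) there. A pseudocount of 5 left 1 gene apart between the parents (HEC1) instead of 2. Between the parents TMM factors kept the count at 2 but with ANT in place of NGA3, and the median of ratios (with ANT) and the highest copy alone (with SPT) gave 3. Against B. napus TMM factors gave 3 (with INO). Of the alternatives chosen after seeing the data, copies with reads in each library gave 1 gene (SPT) against B. carinata and 3 between the parents (with SPT lower), and the wording of the choice alone (3 genes) gave 0 between the parents and 0 against B. napus. Longer copies (500 bases) and sums of reads kept every count of genes. So did score ratios of 0.6, which 38 of 39 copies met and which could therefore move little. Entries of any species left every log2 ratio of a gene unchanged, so that this setting could not move a count.

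Copies apart with no minimum were 22 between the parents, 5 against B. carinata, 16 against B. napus and 1 against the mid-parent value. Against B. carinata they were 2 under either rescaling or a pseudocount of 0.1, and against the mid-parent value 2 with TMM and 1 with that pseudocount. Other carpel and ovule genes apart were 17 with TMM factors against B. napus, and against the mid-parent value 4 with them and 0 under the median of ratios or a pseudocount of 5, instead of 1 (CUC2). Counting up to 3 reads as absent kept 9 copies missing in B. napus and 2 in B. carinata. The causes were not tested. Counting error is widest for genes and copies of few reads.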
